A study of Mus musculus with 4 samples.

Results

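The Schwann cell lineage transcription factors are a group of 10 genes that set the identity and state of the glia of peripheral nerve. They were found by gene symbol in a table of 50593 genes measured in mouse sciatic nerve, and each of Sox10, Egr2, Pou3f1, Pou3f2, Jun, Sox2, Nab1, Nab2, Zeb2 and Tead1 matched 1 row. The nerves came from mice of 6 months of age of the strain 129S1/SvImJ, with 2 samples labelled HSF V30M and 2 labelled HSF WT. According to the methods, mice of the group labelled HSF V30M carried a transgene for human transthyretin (TTR) with the V30M mutation, lacked the endogenous Ttr gene and carried a heterozygous deletion of Hsf-1, the heat shock transcription factor. The HSF WT controls were wild-type animals that carried the same heterozygous Hsf-1 deletion. The transgene and the null allele went together, so their parts in any difference cannot be told apart, and the promoter driving the transgene is not given in the sources used here. The comparison asked how the nerve of this model of hereditary TTR amyloidosis differed from that of its control.

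RNA was sequenced with Ion Torrent protocols and the authors deposited 1 pooled value per gene and group, in FPKM, the fragments of a gene divided by the kilobases of its transcript and by the depth of sequencing. With no value per mouse used here, the variation between mice is unknown and no test was run on any difference. For each gene the log2 ratio of the 2 group values was taken after adding 1 to each, and a gene was called past the fold when this ratio reached 1.5-fold in either direction with a mean FPKM of 1 or more. Depth was read from low values, with 1 worth of a fragment sought for each of the 2 libraries of a group. In HSF WT 1 fragment was taken to be worth 0.0480 or 0.0647 FPKM times kilobases. In the group labelled HSF V30M it was taken to be worth 0.0387 or 0.0454. This gave a number of fragments behind each value and a 95% interval for each FPKM ratio, at the fewest fragments that the annotated transcripts allow. These intervals cover counting error only, not differences between mice or in how reads were shared among the transcripts of a gene.

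The genes altered in the mice were read first. The mouse Ttr gene was listed at 6.10 FPKM in the group labelled HSF V30M and at 0 in HSF WT. By the methods, mice of the former group lack this gene. Whether these reads came from it or from the human transgene, which has no listed value, was not tested. The group is therefore named by its label throughout. Hsf1 stood at 7.94 FPKM in the group labelled HSF V30M and at 15.0 in HSF WT, although both groups are described as heterozygous for its deletion.

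Schwann cells descend from the neural crest, and Sox10 is the factor they need at every stage of their development. During maturation Sox10 works with the POU factors Pou3f1 and Pou3f2 to switch on Egr2, and Sox10 and Egr2 together drive the genes of the myelin sheath. Nab1 and Nab2 bind Egr proteins and act with them as coregulators, mostly as corepressors, and mice that lack both form myelin poorly. Zeb2 represses inhibitors of differentiation, and Tead1 carries the signal of the Hippo pathway coactivators Yap1 and Wwtr1 to DNA. Jun and Sox2 oppose myelination, and Jun directs the repair state that Schwann cells enter after injury.

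Among the 10 members, Nab1 was higher past the fold in the group labelled HSF V30M and Nab2 was lower past it. The other 8 members lay within the fold. Each member had a mean FPKM of 1 or more, so none was left out for low values. Across the 15620 genes with such a mean, 1284 were higher past the fold (8.22%) and 1319 were lower (8.44%). All 10 members are protein-coding, and among the 12715 protein-coding genes with such a mean 5.03% were higher and 5.32% lower. With 10 members a count of 1 in each direction is the smallest above 0, so nothing particular to the group is read from it. Since Nab1 and Nab2 had a mean between 10 and 100 FPKM, that range was also taken, a choice made after seeing the data. Of its 6442 genes, 5.77% were higher past the fold and 5.20% were lower. The median log2 ratio of the members was 0.22, with 8 above 0 and 2 below, against a median of 0.00 over all 15620 genes. Taken relative to the Schwann cell markers that are not members, whose own median was 0.12, the median of the members was 0.11 and Sox2 turned to below 0.

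**Figure D1:**
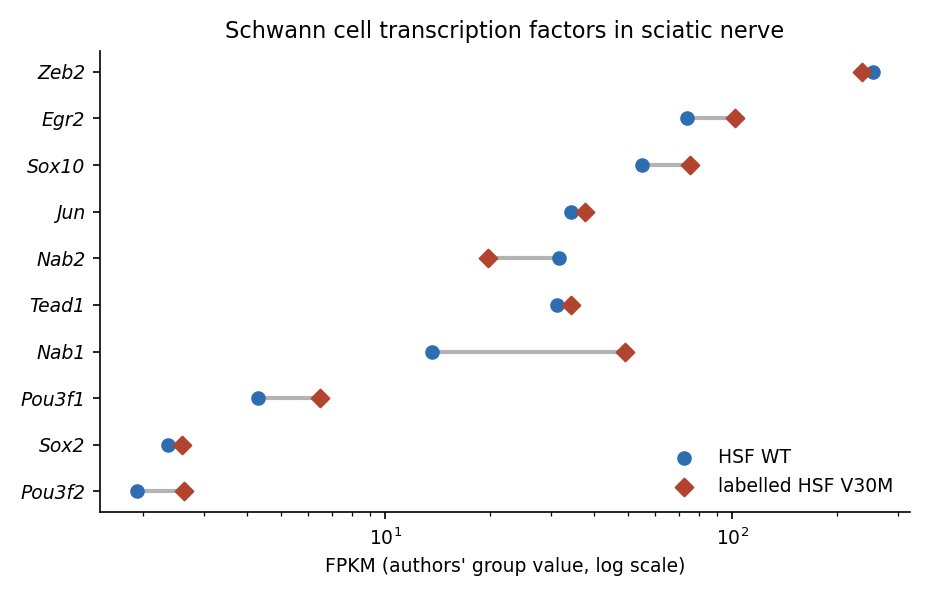
The authors' group value of each member in FPKM on a log axis, with circles for HSF WT, diamonds for the group labelled HSF V30M and a line joining the pair. Nab1 shows the widest gap between groups, from 13.6 to 49.0 FPKM, and Nab2 the widest in the other direction on this axis, from 31.7 to 19.8.

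The levels of the members, which FPKM gives per length of transcript, ran in a partly shared order. Zeb2, Egr2 and Sox10 held the first 3 places in each group, Tead1 held place 6 and Pou3f1 place 8. Nab1 stood at place 7 in HSF WT and at place 4 in the group labelled HSF V30M, Nab2 at places 5 and 7, and Jun at places 4 and 5. Sox2 and Pou3f2 held the last 2 places and changed order, with Sox2 ahead in HSF WT at 2.36 against 1.92 FPKM. Some neighbours stood close together, such as Tead1 at 31.2 and Nab2 at 31.7 FPKM in HSF WT, and Sox2 at 2.60 and Pou3f2 at 2.63 FPKM in the group labelled HSF V30M. The order of such neighbours cannot be told from 1 value per group.

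Nab1 (ENSMUSG00000002881, chr1:52457294-52500679 on GRCm38, minus strand, 5 annotated transcripts) was the member with the largest ratio. Its level was 49.0 FPKM in the group labelled HSF V30M against 13.6 in HSF WT, an FPKM ratio of 3.61 with a counting interval of 2.64 to 5.02. Over the annotated transcripts, 250 to 4646 fragments could stand behind the first value and 48 to 1038 behind the second. These ranges overlap, and the interval assumes the shortest transcript in both groups. On the log2 scale with the added 1 its ratio was 1.78, and 97.9% of the 15620 genes had a lower one. No exon of another gene in the table lay on its exons.

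Nab2 (ENSMUSG00000025402, chr10:127660918-127668568, minus strand, 4 annotated transcripts) differed in the opposite direction. It stood at 19.8 FPKM in the group labelled HSF V30M and at 31.7 in HSF WT, so that the latter was 1.60-fold higher, with a counting interval of 1.17 to 2.19. Its log2 ratio was -0.65, and 7.34% of genes had a lower one. With the fold set to 2, Nab2 was not past it, while Nab1 was. The exons of Nab2 share 40 bases with Stat6, 151 bases with Nemp1 and 1050 bases with the antisense gene Gm16229, all on the other strand. Stat6 stood at 47.2 FPKM in the group labelled HSF V30M against 47.7 in HSF WT, Nemp1 at 2.87 and 3.48, and Gm16229 at 2.58 and 1.46. Use of strand in counting is not given in the sources used here, so reads of such partners and of Nab2 cannot be told apart where they overlap.

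Both Nab proteins bind the same domain of Egr factors, so their levels were set side by side within each group, where scaling between libraries has no part. Nab1 stood at 2.47 times the level of Nab2 in the group labelled HSF V30M and at 0.428 times in HSF WT. The more abundant of the pair was thus Nab1 in the former and Nab2 in the latter. Their summed level was 68.8 FPKM in the group labelled HSF V30M against 45.3 in HSF WT. Relative to Egr2 this sum was 0.675 and 0.610, which is a ratio of 1.11 between the groups.

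The promoters of the Nab genes and of Egr2 are shown because Nab1 and Nab2 were the members past the fold and Egr2 is the factor they bind. RefSeq promoter windows on GRCm38.p6, from 250 bases before to 50 after a start, were found for 7 of the 10 members and lacked Sox10, Pou3f1 and Tead1. They were searched on both strands for short motifs of the members' families. The motifs were GCGTGGGCG and GCGGGGGCG for EGR, ACAAAG and ACAATG for SOX, ATGCAAAT for the POU octamer, TGANTCA and TGACATCA for AP-1, GGAATG for TEAD, and CACCTG for the E-box that ZEB proteins bind. Capitals mark every match in the sequences, which run 5′ to 3′ on the strand of the gene.
Nab1, chr1:52500399-52500698, minus strand: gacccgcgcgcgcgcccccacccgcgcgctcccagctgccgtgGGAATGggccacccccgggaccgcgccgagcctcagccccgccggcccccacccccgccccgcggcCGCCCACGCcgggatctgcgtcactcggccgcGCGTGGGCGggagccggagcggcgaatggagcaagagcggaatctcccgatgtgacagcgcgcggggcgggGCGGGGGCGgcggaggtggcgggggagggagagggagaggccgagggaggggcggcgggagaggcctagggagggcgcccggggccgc
Nab2, chr10:127666654-127666953, minus strand: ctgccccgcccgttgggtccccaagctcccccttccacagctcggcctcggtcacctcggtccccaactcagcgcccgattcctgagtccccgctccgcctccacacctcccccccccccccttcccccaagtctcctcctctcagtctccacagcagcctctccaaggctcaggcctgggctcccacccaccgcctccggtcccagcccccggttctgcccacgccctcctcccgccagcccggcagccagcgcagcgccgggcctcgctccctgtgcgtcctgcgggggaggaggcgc
Egr2, chr10:67537619-67537918, plus strand: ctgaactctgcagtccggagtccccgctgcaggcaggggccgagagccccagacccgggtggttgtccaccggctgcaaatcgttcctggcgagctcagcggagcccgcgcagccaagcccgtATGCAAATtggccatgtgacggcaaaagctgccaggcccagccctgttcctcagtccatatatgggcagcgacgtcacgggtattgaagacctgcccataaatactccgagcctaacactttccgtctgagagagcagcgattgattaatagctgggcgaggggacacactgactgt

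The Nab1 window held GCGTGGGCG at 2 places, beginning 141 and 109 bases before the start and the first of these on the other strand. GCGGGGGCG followed at 38 bases before the start, and GGAATG lay at 207. Over the 32851 windows searched, which do not cover every chromosome, 0.612% held GCGTGGGCG and 2.91% held GCGGGGGCG. Nab1 was the only one of the 7 matched members with either. The Nab2 window held none of the motifs, although both windows were rich in G and C, at 74.0% in Nab2 and 81.7% in Nab1. The windows do not sit alike on the annotated genes. Nab2 as annotated begins at base 127668568, so its window lies inside the gene, as does the Egr2 window shown. Nab1 begins at base 52500679, within its window. The Egr2 window shown is 1 of 5 for this gene and held the octamer ATGCAAAT at 127 bases before the start. This motif was found in 1.74% of the windows searched. Of the other Egr2 windows, 2 that overlap the one shown held the same octamer, and 1 held GGAATG, likewise 127 bases before its start. Among the other members, Jun held TGACATCA at 45 bases before its start (3.62% of windows) and Sox2 held ACAAAG at 206 (18.7%). In 1 of its 4 windows Zeb2 held TGANTCA at 2 places (7.81%), ACAAAG, and GGAATG (14.7%). ACAATG (12.6%) and CACCTG (20.2%) were found in no window of the members, and the Pou3f2 window had no match. A match is a run of letters and says nothing on binding in these nerves.

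Sox10 (ENSMUSG00000033006, chr15:79154908-79165240, minus strand) stood at 75.7 FPKM in the group labelled HSF V30M and at 54.8 in HSF WT. This is an FPKM ratio of 1.38. Taken the other way, HSF WT stood at 0.724 of the level in the other group, with a counting interval of 0.653 to 0.802. Its log2 ratio was 0.46, within the fold, and 88.2% of genes had a lower one. At this depth the ratio lay outside counting error, while its size against differences between mice was not tested.

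Pou3f1 (ENSMUSG00000090125, chr4:124656807-124660655, plus strand), which times the onset of myelination, was listed at 6.47 FPKM in the group labelled HSF V30M and at 4.28 in HSF WT. Its FPKM ratio was 1.51, with a counting interval of 1.29 to 1.77 from at least 519 and 241 fragments. On the scale with the added 1 this became 1.41-fold, within the fold, so the call for Pou3f1 turned on the pseudocount. The antisense gene Gm2164 shares 330 bases with it and was listed at 0 in both groups. Pou3f2 (ENSMUSG00000095139, chr4:22482780-22488366, minus strand), which overlaps in function with Pou3f1, was low at 2.63 and 1.92 FPKM, a ratio of 1.37 with an interval of 1.13 to 1.67. Both POU genes have 1 annotated transcript, so their fragment numbers do not hinge on the choice of transcript.

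Egr2 (ENSMUSG00000037868, chr10:67535475-67542188, plus strand), the zinc finger factor of the myelinating state, was at 102 FPKM in the group labelled HSF V30M and at 74.2 in HSF WT. Its FPKM ratio was 1.37 with a counting interval of 1.14 to 1.65, and its log2 ratio was 0.45. Sox10 stood at 0.743 of the level of Egr2 in the group labelled HSF V30M and at 0.739 of it in HSF WT. The pair thus held almost the same proportion in both groups. With the lower fold tried as an alternative, 5 to 4, Sox10, Egr2, Pou3f1 and Nab1 were higher past it, which is 4 of 10 members, and Nab2 was lower, which is 1 of 10. Of all genes 18.4% were then higher and 17.7% lower, and of the protein-coding ones 15.4% and 14.9%, the latter counted after seeing the data.

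**Figure D2:**
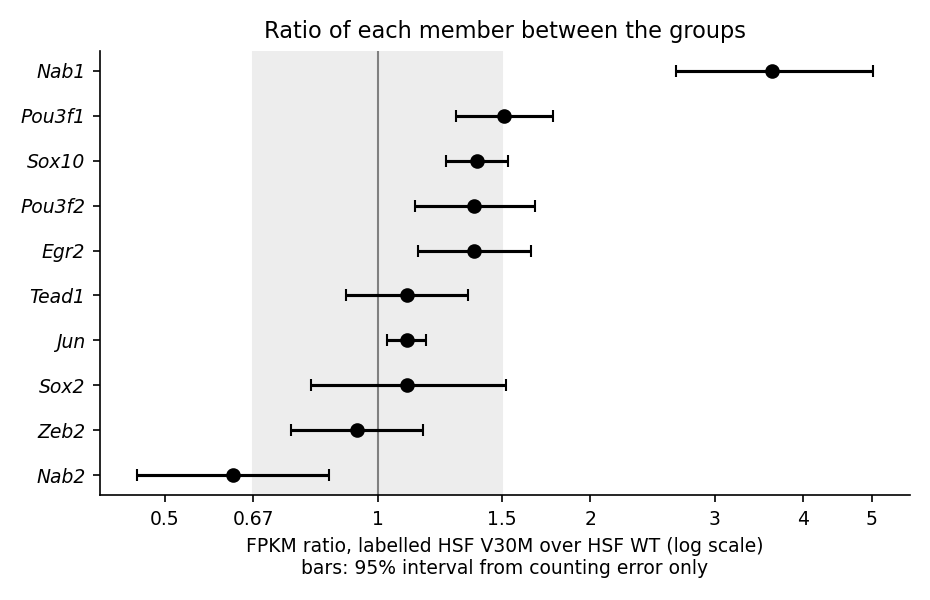
FPKM in the group labelled HSF V30M divided by FPKM in HSF WT for each member, on a log axis, with bars for the 95% interval from counting error at the fewest fragments and a grey band from 1.5-fold lower to 1.5-fold higher. The interval of Nab1 lies from 2.64 to 5.02, apart from those of the other 9 members.

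Zeb2 (ENSMUSG00000026872, chr2:44983632-45117395, minus strand) was the most abundant member, at 237 FPKM in the group labelled HSF V30M against 254 in HSF WT. Its FPKM ratio of 0.934 had a counting interval of 0.754 to 1.16, which takes in 1 at the shortest of its 29 transcripts. The antisense gene Zeb2os shares 653 exonic bases with it and stood at 4.02 and 4.36 FPKM. Zeb2 is also made by macrophages and other cells of the nerve, so its value may not be that of Schwann cells alone. The part of these other cells in the value was not tested.

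Tead1 (ENSMUSG00000055320, chr7:112679318-112906807, plus strand) stood at 34.3 FPKM in the group labelled HSF V30M and at 31.2 in HSF WT. Its ratio of 1.10 had an interval of 0.902 to 1.34, which takes in 1 when the shortest of its 15 transcripts is assumed. Jun (ENSMUSG00000052684, chr4:95049034-95052222, minus strand) was at 37.6 and 34.2 FPKM, also a ratio of 1.10, with a narrower interval of 1.03 to 1.17 from at least 2472 and 1582 fragments. The antisense gene Junos shares 232 bases with Jun and stood at 3.48 FPKM in the group labelled HSF V30M and at 1.97 in HSF WT.

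Sox2 (ENSMUSG00000074637, chr3:34650405-34652461, plus strand), a factor of immature Schwann cells, was low in both groups, at 2.60 FPKM in the group labelled HSF V30M against 2.36 in HSF WT. The ratio of 1.10 rested on at least 106 and 67 fragments, with an interval of 0.805 to 1.52. Sox2 lies within the long noncoding gene Sox2ot, which stood at 22.9 and 26.3 FPKM and shares no exonic base with it. Egr2 stood 39.2 times as high as Sox2 in the group labelled HSF V30M and 31.5 times as high in HSF WT, and 2.71 and 2.17 times as high as Jun.

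**Figure D3:**
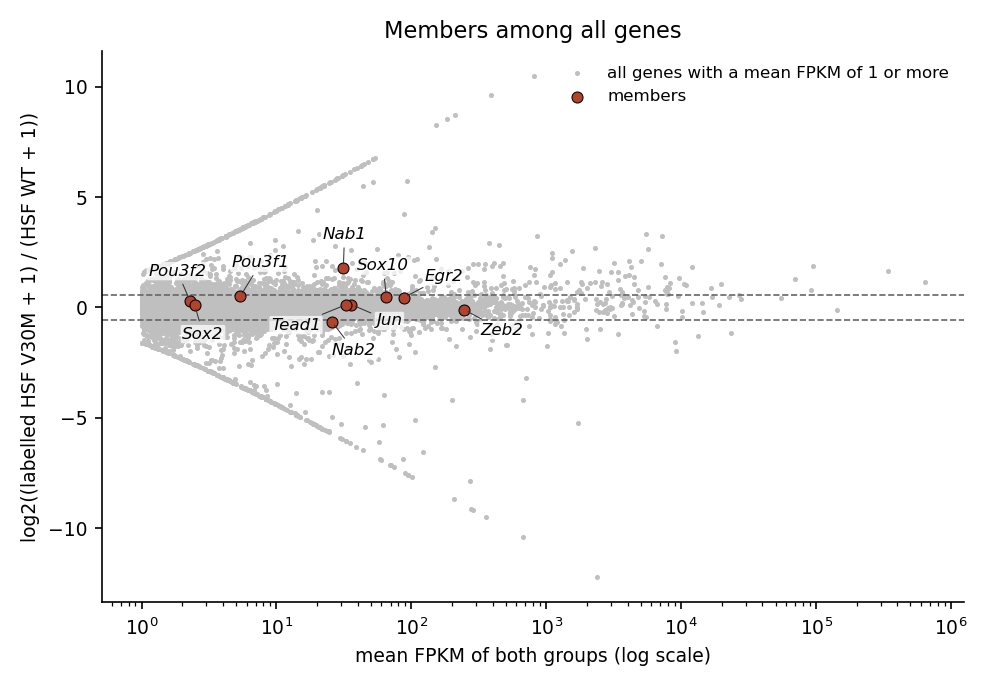
The log2 ratio of each gene with a mean FPKM of 1 or more, after adding 1 to both groups, against its mean FPKM on a log axis. Grey points are the 15620 genes, with those listed at 0 in a group along the slanted edges, red points are the 10 members and dashed lines mark 1.5-fold. Nab1 at 1.78 and Nab2 at -0.65 lie beyond the lines.

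Close relatives of the members were read next, 15 genes of the same protein families. Of these, 10 had a mean FPKM of 1 or more and none was past the fold, with a median log2 ratio of 0.18. With a pseudocount of 0.1 or none, 1 of them was lower past it. The most abundant by the mean of the groups was Zeb1, a repressor related to Zeb2, at 45.2 FPKM in the group labelled HSF V30M against 51.2 in HSF WT, while Jund led in the former at 52.4. Pou3f4 was listed at 0 in both groups. Sox8, which belongs with Sox10 to the SOXE subfamily, came near the threshold at 23.1 and 35.0 FPKM, a log2 ratio of -0.58, and is named after its values were seen. It stood lower in the group labelled HSF V30M while Sox10 stood higher there, and whether the pair differs between mice was not tested.

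The myelin genes bound or driven by Sox10 and Egr2 numbered 18, all with a mean of 1 or more. The list had 9 log2 ratios above 0 and 9 below, with a median of 0.04. Sh3tc2, a Schwann cell protein of endosomal recycling whose loss causes a demyelinating neuropathy, was the only gene of this list past the fold, at 27.2 FPKM in the group labelled HSF V30M against 14.9 in HSF WT. The summed level of the list was 14300 FPKM in the group labelled HSF V30M against 12900 in HSF WT, 1.11-fold higher in the former.

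Of 12 genes known to depend on Jun in repair Schwann cells, 7 had a mean of 1 or more, and 2 of these were higher past the fold in the group labelled HSF V30M. Shh, a hedgehog ligand made by repair Schwann cells, stood at 17.2 FPKM there and at 5.92 in HSF WT, a log2 ratio of 1.40. Cdh2, the adhesion protein N-cadherin, stood at 13.3 and 7.84 FPKM, a log2 ratio of 0.69. The most abundant gene of the list was Ngfr, the low-affinity neurotrophin receptor, at 32.7 and 40.0 FPKM and within the fold. Olig1, Gdnf, Artn, Bdnf and Fgf5 had a mean below 1, and the median over the 7 genes was 0.11.

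Other regulators that hold back myelination gave a mixed picture. Of 8 genes, 7 had a mean of 1 or more, with a median log2 ratio of 0.08. Hey1, a Notch target, was higher past the fold in the group labelled HSF V30M, at 6.91 FPKM against 4.19, and Id2, an inhibitor of helix-loop-helix factors, was lower, at 9.66 against 17.9. The most abundant was the receptor Notch1, at 24.6 and 18.5 FPKM. Of the 3 genes that Zeb2 represses in Schwann cells, which include Sox2, the endothelin receptor gene Ednrb was lower past the fold and was also the most abundant, at 5.53 FPKM in the group labelled HSF V30M against 9.50 in HSF WT. The median of these 3 genes was -0.57. With a pseudocount of 0.1 or none, 2 genes in place of 1 were lower past the fold among these 3, and 2 in place of 1 were higher among the 8 regulators.

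Cofactors, chromatin partners and other lineage factors made up 20 genes, 19 of them with a mean of 1 or more and a median log2 ratio of 0.05. Foxd3, a neural crest factor that marks early glial precursors, was the only one of them past the fold, at 17.8 FPKM in the group labelled HSF V30M against 6.55 in HSF WT, a log2 ratio of 1.32. Srebf1, which drives genes of lipid synthesis, was the most abundant at 140 and 151 FPKM. The others include the histone deacetylases Hdac1, Hdac2 and Hdac3 and the chromatin remodeller Chd4, a partner of Nab proteins, and all of these lay within the fold.

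The partners of Tead1, the Hippo kinases and the TEAD targets were listed under 14 names, of which 12 were in the table and 11 had a mean of 1 or more. The coactivator Yap1 was higher past the fold in the group labelled HSF V30M, at 57.7 FPKM against 34.8, a log2 ratio of 0.71. Its paralog Wwtr1 stood at 32.8 and 32.7 FPKM. Amotl2, a TEAD target, was the most abundant at 81.2 and 95.8, and the median of the list was 0.00. None of the 8 AP-1 partners of Jun was past the fold, although 1 was higher past it with a pseudocount of 0.1 or none, with a median of 0.16 and Jund the most abundant at 52.4 and 39.7 FPKM. Of 12 immediate early genes, which respond within minutes to handling of tissue, Nr4a1 was the only one past the fold, at 45.1 and 29.6 FPKM, and their median was 0.08. It was also the most abundant by the mean of the groups, while Dusp1 led in HSF WT at 31.1.

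**Figure D4:**
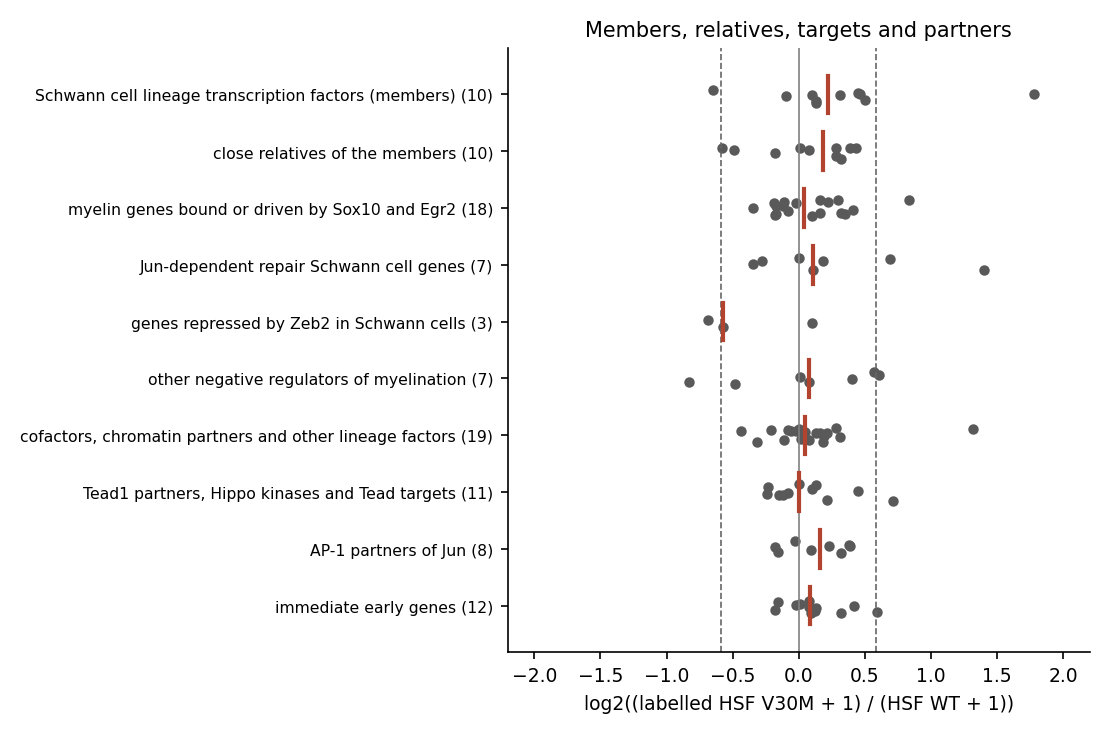
The log2 ratio of each gene with a mean FPKM of 1 or more in the list of members and in the lists of relatives, targets and partners, with red bars at the medians, dashed lines at 1.5-fold and the number of genes in parentheses. Medians lie between 0.00 and 0.22, apart from that of the 3 genes repressed by Zeb2 at -0.57.

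Sciatic nerve holds many cell types, and in bulk RNA fewer cells of a type and less RNA per cell cannot be told apart. Schwann cell markers other than the members showed a median log2 ratio of 0.12 over the 9 of 10 genes with a mean of 1 or more. S100b was past the fold, at 328 FPKM in the group labelled HSF V30M against 201 in HSF WT. The 10 genes summed to 6070 and 4770 FPKM, 1.27-fold higher in the former, a sum that weighs the most abundant genes more than the median does, and no marker was at 0. Taken relative to the median of these markers, the log2 ratio of Nab1 was 1.66, that of Nab2 was -0.77, and that of Sox2 turned to -0.02.

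For markers of the connective tissue and vessels, the median log2 ratio was -0.15 over 7 fibroblast genes, 0.24 over 3 perineurial genes, 0.11 over 6 endothelial genes and 0.11 over 4 mural genes. The fibroblast list summed to 2240 FPKM in the group labelled HSF V30M against 2330 in HSF WT, with Dcn the most abundant at 1330 and 1320, and Dpt was lower past the fold at 33.7 and 64.7. Perineurial genes summed to 470 and 402 FPKM, with Itgb4 the most abundant at 310 and 257. Endothelial genes summed to 209 and 171 FPKM, with Cldn5 both the most abundant and higher past the fold at 100 and 57.9. Mural genes summed to 236 and 219 FPKM, with Acta2 the most abundant at 147 and 137, Rgs5 higher past the fold at 32.7 and 19.5, and Myh11 lower at 17.0 and 26.3.

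Other tissues differed more. Skeletal muscle markers summed to 39.1 FPKM in the group labelled HSF V30M against 143 in HSF WT, and 5 of 6 were lower past the fold, namely Acta1, Ckm, Myh4, Tnnt3 and Mylpf. Ckm was the most abundant by the mean of the groups, at 8.97 and 43.8 FPKM, while Tnnt3 led in the group labelled HSF V30M at 10.9, and Myh1 had a mean below 1. Adipocyte markers summed to 2320 and 3200 FPKM, with Cfd the most abundant at 1190 and 1470. Adipoq at 319 and 543 FPKM, Lep at 7.47 and 33.4, and Fabp4 at 462 and 722 were lower past the fold, which is 3 of 6. The medians were -2.03 for muscle and -0.52 for adipocytes. Tead1 and Zeb2 are also expressed outside glia, and the part of muscle and fat in the values of the members was not tested.

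Blood and immune markers differed in both directions. Macrophage genes summed to 142 FPKM in the group labelled HSF V30M against 196 in HSF WT, and their median was -0.48 over 6 genes. C1qa was the most abundant at 70.6 and 96.5, and Cd68 was lower past the fold at 15.5 and 30.9, as was 1 more gene with a pseudocount of 0.1 or none. B cell genes summed to 1.79 and 18.4 FPKM, with 3 of 4 lower past the fold, among them Cd79a at 0.650 and 7.09, the most abundant by the mean of the groups, and Cd79b at 0.530 and 7.16, which led in HSF WT, while Ms4a1 had a mean below 1. T cell genes summed to 1.47 and 7.28 FPKM, with Cd4 the most abundant at 0.520 and 3.88, also lower past the fold, as was Cd3e at 0.320 and 2.29, while Cd3d and Cd8a had a mean below 1. The medians were -2.29 for B cells and -1.5 for T cells, and they turned on the settings, at -3.45 and -2.87 with no pseudocount and at -1.87 and -0.93 with no minimum mean. Neutrophil genes summed to 91.7 and 27.8 FPKM with a median of 1.60. S100a9 was the most abundant at 59.0 and 13.8, S100a8, Ngp and Retnlg were also higher past the fold, which makes 4 of 5, and Csf3r was lower at 2.63 and 6.05. Erythroid genes summed to 288 and 99.6 FPKM with a median of 1.55, and the globin genes Hbb-bs, the most abundant at 111 and 37.1, Hbb-bt, Hba-a1 and Hba-a2 were higher past the fold, which is 4 of 5. The 2 beta globin genes are near-identical to each other, as are the 2 alpha globin genes, so the split within each pair is uncertain.

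Egr2, Jun, Zeb2 and the Nab genes are also expressed in blood cells, and the part of these cells in the values of the members was not tested. Neuronal markers summed to 17.8 FPKM in the group labelled HSF V30M against 7.18 in HSF WT. Their median was 0.61 over 4 of 5 genes, Elavl4 having a mean below 1, and it moved to 0.13 with no minimum mean and to 2.32 with a minimum of 5, where only Tubb3 remains. Tubb3, which shares its locus in the table with other genes, was higher past the fold at 9.68 and 1.14 FPKM and so the most abundant by the mean of the groups, while in HSF WT it stood below Snap25 at 2.50, Nefl at 1.45 and Rbfox3. Rbfox3 was also higher past the fold at 3.65 and 1.20. All 5 melanocyte markers, which share the neural crest origin and Sox10, had a mean below 1, with a sum of 1.40 and 1.33 FPKM, Pmel the most abundant at 0.630 and 0.685, and Tyr at 0 in both groups. All 4 keratinocyte markers had a mean below 1, with a sum of 0.880 and 1.27 FPKM, Krt10 the most abundant at 0.790 and 1.15, and Krt1 at 0 in both groups.

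**Figure D5:**
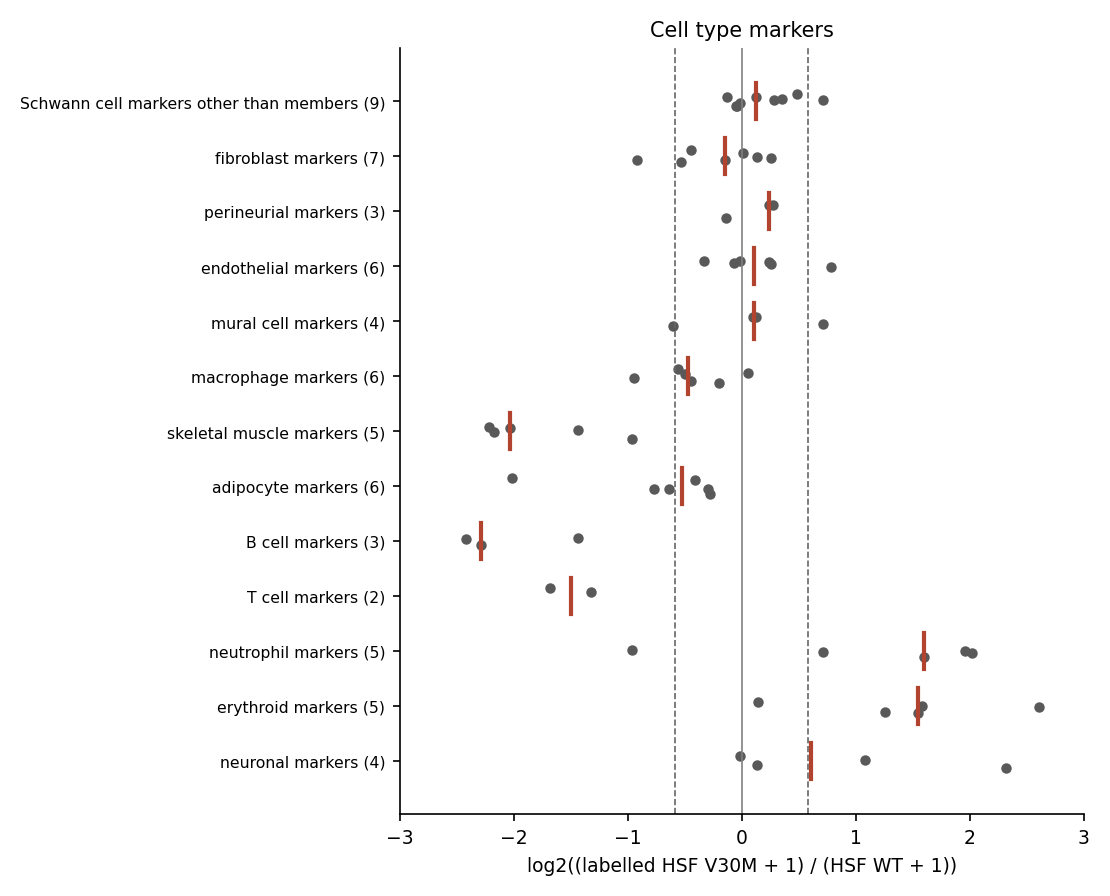
The log2 ratio of each cell type marker with a mean FPKM of 1 or more, with red bars at the medians, dashed lines at 1.5-fold and the number of genes in parentheses. The Schwann cell median is 0.12, while muscle at -2.03 and B cells at -2.29 lie lowest and neutrophils at 1.60 lie highest.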

How the data were processed

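RNA sequencing of sciatic nerve was used, with 2 samples labelled HSF V30M and 2 labelled HSF WT, while the methods give n = 4 without saying whether this is per group. The submitters' processing notes name STAR, Cufflinks, Cuffdiff and GRCm38, with no versions. The reads of these mice, of the strain 129S1/SvImJ, were aligned to the C57BL/6J genome. The authors deposited 1 table with the FPKM of each group over its libraries. Its decimal commas were replaced by points and its columns were read by number, as the header line is incomplete. The 5 columns of the authors' comparison hold a log2 fold change, a test statistic, a p-value, a q-value and a call, and were not used. Left out were 23 genes that the table marks as too deep to estimate, and list genes were matched by symbols that occur once.

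Ratios were log2((HSF V30M + 1) / (HSF WT + 1)), with 1.5-fold and a mean FPKM of 1 or more as the call. The worth of 1 fragment was sought among 17276 genes that have 1 transcript and share no locus. After 201 bases were subtracted from the length, the 2 values at which FPKM times kilobases gathered most were taken per group. Their number was set in advance, as each group has 2 libraries. HSF V30M values have 2 decimals, so its worth is the less exact. Intervals are exact binomial ones on the fragments of both groups, at the shortest transcript and the larger worth. Transcripts and positions are from GENCODE M21, which holds 50369 of the identifiers and lacks 224.

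All 10 members were named, and of each other list the genes past the fold and the most abundant one, except 2 genes that are not reported here. The members and lists were chosen with earlier results of these data known. The alternatives were pseudocounts of 0.1 and none, median-of-ratios scaling (factor 1.002), other minimum means and folds, protein-coding genes, and ratios relative to the Schwann cell markers. The worth of 1 fragment and the calls past the fold were tested on simulated data. The coverage of the intervals, the fragment ranges of genes with several transcripts and the motif search were not. Scripts ran under Python 3.11.15 with scipy 1.17.1, pandas 2.3.3 and numpy 2.4.6, and plots were drawn by matplotlib 3.10.9.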

Additional observations from a re-analysis of the deposited data

How the results depend on the processing

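Nab1 was higher and Nab2 lower past the fold with a pseudocount of 0.1, with none, with median-of-ratios scaling and with minimum means of 0 or 5 FPKM. These settings could not have changed either call. A smaller pseudocount only widens a ratio, the scaling factor was 1.002, and the means were 31.3 and 25.8 FPKM. At the minimum of 5, Sox2 and Pou3f2 were left out, with means of 2.48 and 2.28 FPKM. Without a pseudocount 2 members were higher past the fold, since Pou3f1 joined Nab1, and of the 15121 genes above 0 in both groups with a mean of 1 or more 10.1% were then higher and 9.88% lower, an alternative added after seeing the data. At the lower fold of 5 to 4, 4 members were higher, and at 2-fold 0 were lower, as the threshold itself moved. Over all genes, the counts higher and lower were 1703 (10.9%) and 1692 (10.8%) with a pseudocount of 0.1, 2880 and 2766 at the fold of 5 to 4, 621 and 616 at 2-fold, 732 and 646 with a minimum mean of 5, 639 (5.03%) and 676 (5.32%) among 12715 protein-coding genes, and 372 and 335 between 10 and 100 FPKM, the last also chosen after seeing the data. Fewer genes were counted under the last 3. With no minimum mean, 50570 genes were counted and 1771 (3.50%) were higher and 1838 (3.63%) lower, so the shares fell while the counts of members did not move. At the fold of 5 to 4 among protein-coding genes, likewise added after seeing the data, 1957 (15.4%) were higher and 1893 (14.9%) lower. The median of the members lay between 0.11 and 0.30 under its 6 alternatives.

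Of 40 log2 ratios of single members under alternatives, 39 moved by less than their counting error. The exception was Jun, at 0.01 relative to the Schwann cell markers, where Sox2 also changed sign. Of 108 medians of the other lists 11 moved by more than 0.28, the typical counting error of a member, in lists of muscle, B cells, T cells, neutrophils and neurons. The muscle median was -1.73 with no minimum mean, and the neutrophil median 1.96 with a minimum of 5. The B cell median was -3.26 with a pseudocount of 0.1, -3.45 with none and -1.87 with no minimum, and that of T cells was -2.59, -2.87 and -0.93. The neuronal median was 0.91 with no pseudocount, 0.13 with no minimum and 2.32 with a minimum of 5, where 1 gene remains. Of 216 counts of genes past the fold in these lists, higher or lower, 12 moved by more than 1.5-fold or to or from 0. With a pseudocount of 0.1 and with none, 1 relative was lower and 1 AP-1 partner higher in place of 0, and 2 in place of 1 were lower among genes repressed by Zeb2, higher among other negative regulators and lower among macrophage markers. With a minimum mean of 5, neutrophil genes lower fell to 0 and neuronal genes higher to 1.

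No paired analysis was possible because each group has a single pooled value, and leaving out a replicate was likewise not run. Depth limits Sox2, with at least 67 fragments in HSF WT, and Nab1, with at least 48. For genes with several transcripts the number of fragments is known only as a range. For Nab1 it runs from 48 to 1038 in HSF WT and from 250 to 4646 in the group labelled HSF V30M.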

Other observations

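Noncoding genes lie beside several members. Junos, antisense to Jun, stood at 3.48 FPKM in the group labelled HSF V30M and at 1.97 in HSF WT, while Jun itself stood at 37.6 and 34.2. Sox2ot, the long noncoding gene around Sox2, was at 22.9 and 26.3 FPKM, some way above Sox2 at 2.60 and 2.36. At the Zeb2 locus the antisense gene Zeb2os was at 4.02 and 4.36 FPKM and the small RNA gene Gm27761 at 8.66 and 6.85. The lncRNA 2310014F06Rik, which lies head to head with Tead1, was at 3.84 and 4.11 FPKM.

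The Nab genes also differed in their standing relative to Egr2, the factor they bind. Nab1 stood at 0.481 of the level of Egr2 in the group labelled HSF V30M and at 0.183 in HSF WT, and Nab2 at 0.195 and 0.428. Pou3f1 stood at 2.46 times the level of Pou3f2 in the former and at 2.23 times in the latter.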
